A study of Mus musculus with 9 samples.

Results

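The genes described here are 34 genes of endoplasmic reticulum (ER) protein folding and the unfolded protein response (UPR), chosen by name among the 16937 genes listed for brown adipose tissue of 9 mice. All 34 were listed in each of the 3 deposited tables. They comprised 11 folding genes, 2 lectin chaperones, 6 disulfide isomerases, 7 genes of ER-associated degradation (ERAD), 4 translocon genes and 4 sensors or regulators. Transcripts were measured by RNA sequencing of the whole tissue. WT mice were held at room temperature, 23°C (WT RT, n = 3), or kept in the cold at 4°C for 8 h (WT Cold, n = 3). Mice labelled as GCN2 knockouts were kept in the same cold for the same time (GCN2 KO Cold, n = 3). All were adults reared at 23°C and housed singly for 5 days beforehand, and there was no GCN2 KO group at room temperature. Per the methods of the study, the knockout covers the whole body on a C57Bl/6J background and both sexes were used, so no value here is particular to brown adipocytes. The question was how acute cold changes the transcriptome of brown fat and what the loss of GCN2, a kinase that senses amino acid shortage, alters in it.

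Secreted and membrane proteins enter the ER through the Sec61 translocon, where BiP (Hspa5), the calreticulin and calnexin lectins and the protein disulfide isomerases fold them. Proteins that fail to fold are drawn back to the cytosol by ERAD and degraded. When unfolded proteins accumulate, the sensors IRE1 (Ern1), ATF6 and PERK (Eif2ak3) start the UPR. IRE1 splices the mRNA of the transcription factor Xbp1, ATF6 is cut in the Golgi to a transcription factor, and PERK phosphorylates eIF2, as GCN2 does, which favours translation of ATF4. Brown fat secretes proteins and holds a large lipid-handling ER, and heat production through UCP1 is its known task in the cold.

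The 9 libraries held between 27051849 and 30753272 reads over the 16006 genes listed in all tables. The letters A, B and C name the 3 libraries of a group and do not link groups. Values per library are normalized counts, that is, reads divided by a size factor set over all 9 libraries. Eif2ak4, which encodes GCN2, stood at 294.3, 334.4 and 369.3 normalized counts in WT RT, at 181.1, 237.7 and 244.7 in WT Cold, and at 367.0, 395.1 and 369.4 in the 3 libraries that the labels give as GCN2 KO Cold, called the KO-labelled libraries from here on. It was therefore not lower where the label says knockout, and a count over all exons does not show which exons were read. Library C of both cold groups stood apart from the other 7. Ddx3y, a gene of the Y chromosome, was at 206.0 in WT Cold C and 326.7 in GCN2 KO Cold C but between 2390.0 and 4046 elsewhere, and Xist was at 3835 and 3982 against 350.6 to 1342. The labels give no sex for a library. No WT RT library had this pattern, so the comparisons of the cold groups with WT RT differ in it as well as in cold. The column codes of WT RT begin with other letters than those of WT Cold and GCN2 KO Cold, so that cold and whatever these letters mark cannot be told apart. All 8 brown adipocyte markers listed were read in every library, from Prdm16 at 9.17 to 23.2 CPM (reads scaled to the library total) to Ucp1 at 3594 to 9695 CPM.

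Many UPR genes carry the ER stress response element (ERSE), in which CCAAT and CCACG are separated by 9 bases. It was searched for on both strands of the RefSeq promoters (GRCm38.p6, 250 bases before to 50 after the start of a gene), which cover 27025 genes and 27 of the 34 genes here. The other 7 are Hyou1, Hspa13, Manf, Derl1, Sec61a1, Ssr2 and Atf6. The element was present in 9 of these 27 (33.3%) and in 37 of all 27025 (0.137%). The sites are shown because UPR transcription factors are known to act through this element. Each is read in the direction of the element, with its 2 conserved parts in capitals.

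Hspa5 (chr2:34772017-34772051, plus strand): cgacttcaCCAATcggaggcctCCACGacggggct
Canx (chr11:50325792-50325826, minus strand): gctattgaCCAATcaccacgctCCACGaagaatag
Pdia6 (chr12:17266483-17266517, plus strand): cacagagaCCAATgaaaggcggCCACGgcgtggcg
Hsp90b1 (chr10:86705630-86705664, minus strand): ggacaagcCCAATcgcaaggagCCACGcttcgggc
Hsp90b1 (chr10:86705525-86705559, plus strand): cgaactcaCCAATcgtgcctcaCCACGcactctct
Calr (chr8:84847067-84847101, plus strand): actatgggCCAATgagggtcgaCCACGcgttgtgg
Dnajc3 (chr14:118937819-118937853, plus strand): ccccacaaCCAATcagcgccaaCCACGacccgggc
Creld2 (chr15:88819512-88819546, minus strand): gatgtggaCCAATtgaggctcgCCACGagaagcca
Syvn1 (chr19:6046524-6046558, plus strand): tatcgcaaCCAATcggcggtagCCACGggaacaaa
Derl3 (chr10:75893234-75893268, minus strand): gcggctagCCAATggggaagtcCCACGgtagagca

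In Hspa5 the element lay from 65 to 47 bases before the start, in Pdia6 from 98 to 80 and in Canx from 145 to 127. Its parts are common: CCAAT alone was in 41.1% of all promoters and CCACG alone in 35.5%. A related form, in which ATTGG and CCACG are separated by 1 base (ERSE-II; ATTGG is CCAAT on the other strand), was in Dnajb11 and Herpud1 and in 0.0444% of all genes. The letters TGACGTGG, which hold CCACG on the other strand, were in Txndc5 and in 0.714% of all genes. The 250 bases before the start of Hspa5 and Canx, which rose in the cold, and of Pdia6, which fell, are given with the full element in capitals.

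Hspa5 (chr2:34771840-34772089, plus strand): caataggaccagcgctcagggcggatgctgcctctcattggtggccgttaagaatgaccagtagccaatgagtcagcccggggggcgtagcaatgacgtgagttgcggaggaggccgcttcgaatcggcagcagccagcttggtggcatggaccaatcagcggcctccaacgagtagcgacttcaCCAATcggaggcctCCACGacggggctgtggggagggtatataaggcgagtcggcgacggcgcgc
Canx (chr11:50325674-50325923, minus strand): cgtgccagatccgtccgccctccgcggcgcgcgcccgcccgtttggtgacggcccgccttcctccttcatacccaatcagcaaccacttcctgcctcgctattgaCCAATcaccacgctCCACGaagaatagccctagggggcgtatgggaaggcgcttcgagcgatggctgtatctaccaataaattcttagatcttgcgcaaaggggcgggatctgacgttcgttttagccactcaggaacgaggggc
Pdia6 (chr12:17266339-17266588, plus strand): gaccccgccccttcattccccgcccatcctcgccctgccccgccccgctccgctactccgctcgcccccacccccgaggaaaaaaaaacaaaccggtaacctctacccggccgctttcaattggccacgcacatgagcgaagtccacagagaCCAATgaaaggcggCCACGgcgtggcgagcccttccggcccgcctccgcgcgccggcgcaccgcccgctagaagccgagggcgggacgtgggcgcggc

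Set on a common scale by exon length, the 34 genes spanned a wide range of levels in WT RT. Calr, the luminal lectin chaperone, was highest at 3883 ± 220 (SD, n = 3) normalized counts per kb, followed by Hsp90b1 at 2405 ± 60.9 and Hspa5 at 2394 ± 165, which did not differ beyond their spread. The lowest were the sensor gene Ern1 at 49.8 ± 0.67 and Derl3, an ERAD channel component of secretory cells, at 10.3 ± 4.36. Derl3 rested on 2 to 33 reads in a library. In the cold Hspa5 stood at 2980 ± 98.5 in WT Cold and 3100 ± 96.9 in the KO-labelled libraries, above Hsp90b1 in both.

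**Figure D1:**
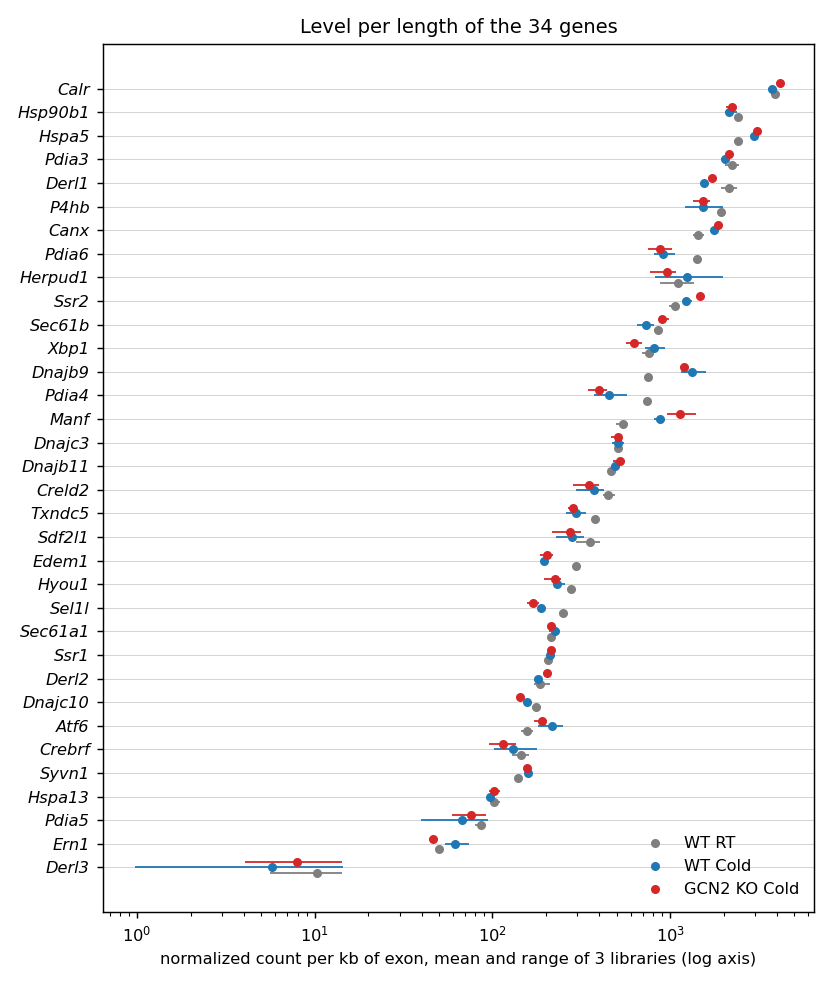
Level of each of the 34 genes as normalized counts per kb of exon on a log axis, with the mean (point) and the range of 3 libraries (line) in WT RT (grey), WT Cold (blue) and GCN2 KO Cold (red). Genes are ordered by WT RT, from Derl3 at 10.3 to Calr at 3883, and Dnajb9, Manf and Pdia4 are among those whose cold libraries lie away from WT RT.

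Between WT RT and WT Cold the ER genes moved both ways. Of the 34, 5 were higher (Dnajb9, Manf, Atf6, Hspa5 and Canx) and 6 lower (Pdia4, Pdia6, Edem1, Derl1, Sel1l and Txndc5), with an adjusted p under 0.05 by limma. Over all genes 13.6% were higher and 14.1% lower by this rule, so that the share of the 34 called is close to that of the transcriptome. None of the 34 also passed the stricter rule of the study, an absolute log2 fold change over 1, which 8.14% of all genes passed. Their median log2 fold change was -0.10, against 0.0029 over all genes tested. In 8 of the 34 each WT Cold library lay above each WT RT library (23% of all genes) and in 9 below (22.8%). DESeq2 on the recovered reads also gave 5 higher and 6 lower. Scaled by library total (CPM), 2 were higher and 7 lower, with a median of -0.19 against -0.081 over all genes. With this scaling 4475 of all 16679 genes were called, 35.1% of them higher. In whole tissue, a change in the number of cells of a type and in RNA per cell cannot be told apart.

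**Figure D2:**
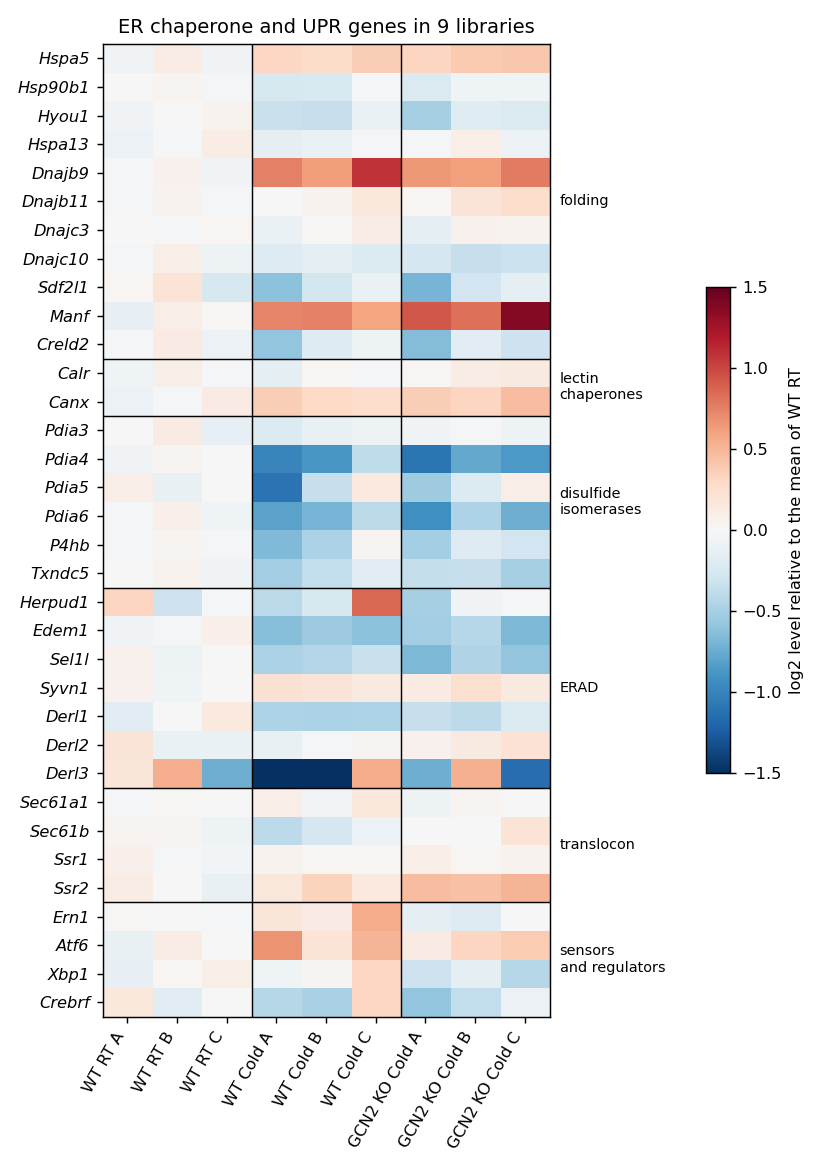
Log2 level of each of the 34 genes (rows, by role) in each of the 9 libraries (columns), relative to the mean of WT RT, from blue (lower) over white to red (higher). Colours are full at 1.5 in either direction, which Derl3 exceeds in WT Cold A and B. Dnajb9 and Manf are red and Pdia4, Pdia6, Edem1 and Sel1l blue in all 6 cold libraries.

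Among the 11 folding genes, 3 rose in WT Cold and none fell. Dnajb9 encodes ERdj4, a BiP cochaperone that also restrains IRE1. It was at 1885, 1998 and 1834 normalized counts in WT RT and at 3208, 2933 and 4040.2 in WT Cold. The 2 groups did not overlap, and the log2 fold change was 0.82 ± 0.12 (SE; adjusted p = 0.0027, limma). Manf, a small ER protein that binds BiP and can be secreted, was at 1752, 2037 and 1932 in WT RT and at 3153, 3227 and 2870 in WT Cold. All 3 cold values lay above those at room temperature, with a log2 fold change of 0.70 ± 0.08 (adjusted p = 0.0013, limma). These were the only genes of the 34 to rise in WT Cold under each of the 14 alternative settings run for a gene.

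Hspa5, the central ER chaperone of the Hsp70 family, moved less. Its values were 9725, 10932 and 9716 in WT RT and 12502, 12243 and 13058 in WT Cold, with the groups apart and a log2 fold change of 0.32 ± 0.08 (adjusted p = 0.017, limma). The call was lost when reads were scaled by library total (CPM; adjusted p = 0.069, limma). Hspa5 kept it in a single fit of all 3 groups on CPM (adjusted p = 0.042, limma). Hsp90b1 (GRP94), the ER member of the Hsp90 family, did not follow it. It was at 9664, 9958 and 9471 in WT RT and at 8183, 8295 and 9597 in WT Cold, where library C reached the WT RT range (log2 fold change -0.16 ± 0.08, adjusted p = 0.19, limma). Hyou1, a nucleotide exchange factor for BiP, lay below WT RT in each cold library, at 1588, 1575 and 1858 against 1923 to 2077, without passing (log2 fold change -0.26, adjusted p = 0.066, limma). It passed with CPM scaling (-0.34, adjusted p = 0.018, limma). The remaining 6 folding genes did not pass either. Their log2 fold changes ran from -0.33 for Sdf2l1, a BiP-associated cofactor, over -0.28 for Creld2, -0.17 for the reductase Dnajc10, -0.08 for Hspa13 and 0.01 for the cochaperone Dnajc3 to 0.07 for the cochaperone Dnajb11.

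Of the lectin chaperones, which hold glycoproteins during folding, 1 rose. Canx, the membrane-bound calnexin, was at 6310.1, 6551 and 7304 in WT RT and at 8666, 8253 and 8030.4 in WT Cold. The groups did not overlap and the log2 fold change was 0.31 ± 0.08 (adjusted p = 0.022, limma). This call too was lost with CPM scaling (0.23, adjusted p = 0.053, limma) and kept in the fit of all 3 groups on CPM (adjusted p = 0.038, limma). Calr, the soluble calreticulin, was at 10649 to 11882 in WT RT and 10207 to 11387 in WT Cold, with overlapping groups and a log2 fold change of -0.04 (95% interval -0.22 to 0.14). Whether the 2 genes differ in their response was not tested.

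All 6 disulfide isomerases, which form and rearrange disulfide bonds in the ER, had negative log2 fold changes in WT Cold, and 3 of them fell. Pdia4 (ERp72) was at 1719.7, 1839.8 and 1798 in WT RT and at 898.8, 976.8 and 1372 in WT Cold. Each cold library lay below each WT RT library, with library C the highest of the 3, and the log2 fold change was -0.74 ± 0.15 (adjusted p = 0.01, limma). Pdia6 was at 5236, 5585 and 5084 in WT RT and at 3043, 3274 and 3988 in WT Cold. The same library was again highest in the cold group, still below WT RT, with a log2 fold change of -0.63 ± 0.11 (adjusted p = 0.0049, limma). Txndc5 (ERp46) fell by 0.35 on the log2 scale (adjusted p = 0.038, limma), a call lost when any 1 of 5 of the 6 libraries was left out. P4hb, the founding protein disulfide isomerase, was at 5380 to 5685 in WT RT and at 3467, 3966 and 5666 in WT Cold. Libraries A and B were low and library C was within the WT RT range, and the gene did not pass (log2 fold change -0.36 ± 0.16, adjusted p = 0.14, limma). Pdia5 (-0.43) and Pdia3 (-0.13), the isomerase that works with the lectin chaperones, did not pass. Of 6 other genes of oxidative folding tested, 5 had positive log2 fold changes and 1, Txndc11, rose (0.45, adjusted p = 0.0098, limma).

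In ERAD, 3 of 7 genes fell and none rose. Edem1, which takes mannose-trimmed glycoproteins to degradation, was at 1836, 1877 and 2021 in WT RT and at 1226, 1313 and 1251 in WT Cold. The cold values were close together and all below WT RT, with a log2 fold change of -0.59 ± 0.08 (adjusted p = 0.0016, limma). Sel1l, the adaptor of the ubiquitin ligase Hrd1, was at 2245, 2038 and 2151 in WT RT and at 1545, 1576 and 1704 in WT Cold, again without overlap (-0.41 ± 0.08, adjusted p = 0.0076, limma). Derl1, a membrane component of the exit channel, was at 6397, 7142 and 7879 in WT RT and at 5176, 5132 and 5174 in WT Cold (-0.46 ± 0.09, adjusted p = 0.0071, limma). Syvn1, which encodes Hrd1 itself, lay above WT RT in each cold library, at 744.4 to 794.2 against 647.4 to 707.4, and did not pass (0.19 ± 0.08, adjusted p = 0.14, limma). Herpud1, which gathers ERAD complexes, was spread within both groups, at 2050.4 to 3171 in WT RT and at 1919, 2141 and 4615 in WT Cold. Derl2 (log2 fold change -0.03) and Derl3 (-1.42 ± 0.84) did not pass.

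None of the 4 translocon genes passed in WT Cold. Sec61a1, the pore subunit, and Ssr1 had log2 fold changes of 0.08 and 0.04. Ssr2 lay above WT RT in each cold library (0.22 ± 0.09) and Sec61b, the small subunit of the pore, below (-0.24 ± 0.10). Their adjusted p values were 0.10 and 0.12 by limma.

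Of the sensors and regulators Atf6 rose. It was at 1333, 1560.4 and 1447 in WT RT and at 2298, 1661 and 2052 in WT Cold. The groups did not overlap but library B lay near WT RT, and the log2 fold change was 0.46 ± 0.13 (adjusted p = 0.03, limma). The call was lost with CPM scaling (adjusted p = 0.07, limma) and narrowly kept in the fit of all 3 groups on CPM (adjusted p = 0.0499, limma). Ern1 was at 413.1, 404.9 and 402.8 in WT RT and at 460.0, 443.6 and 599.6 in WT Cold. Each cold value was above WT RT, library C most, without a call (0.29 ± 0.13, adjusted p = 0.14, limma). Xbp1 was at 2264, 2504 and 2615 in WT RT and at 2356, 2521 and 3041 in WT Cold, with overlapping groups (0.10 ± 0.11, adjusted p = 0.53, limma). Gene counts add spliced and unspliced Xbp1 mRNA, so they do not show IRE1 activity. Crebrf, a regulator that lowers CREB3, was between 877.3 and 1535 in WT Cold and 1102 and 1381 in WT RT (-0.20 ± 0.21).

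**Figure D3:**
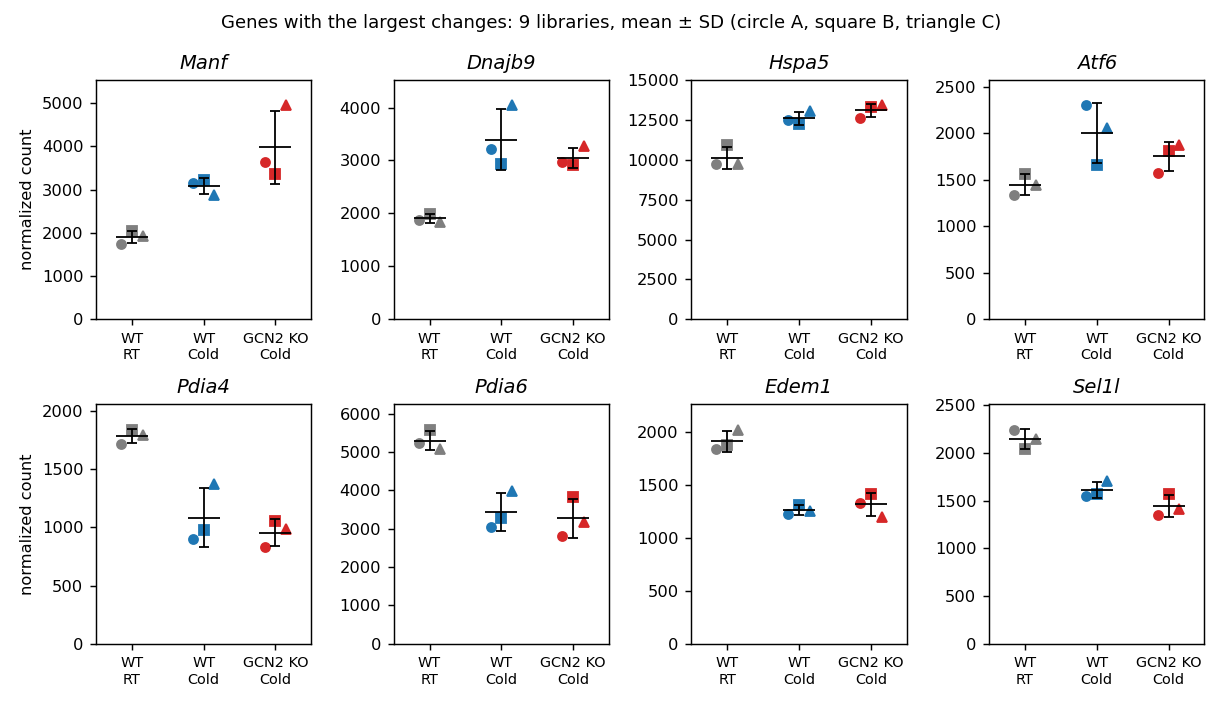
Normalized counts of 8 genes in the 9 libraries (circle A, square B, triangle C) with the mean and SD of each group of 3 (black). Manf, Dnajb9, Hspa5 and Atf6 lie higher and Pdia4, Pdia6, Edem1 and Sel1l lower in both cold groups than in WT RT.

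Library C of WT Cold, 1 of the 2 libraries that stood apart, changed the count of lower genes more than any other library when left out. It was the highest of its group in Pdia4, Pdia6, P4hb, Pdia5, Herpud1, Derl3 and Crebrf, among others, and Herpud1 reached 157 CPM in it against 68.5 and 74.8 in A and B. Without it 13 of the 34 were lower in WT Cold in place of 6, and 5 were higher. The 7 added were P4hb (log2 fold change -0.57), Hsp90b1 (-0.23), Hyou1 (-0.33), Pdia5 (-0.72), Derl3 (-2.41), Sec61b (-0.32) and Crebrf (-0.45). The share of all genes called in this fit is not given here, so whether the added calls are particular to the 34 was not tested. The count of 5 higher fell to 2 without WT Cold A or without WT RT A, and to 3 without WT RT B or without WT RT C. Hspa5, Canx and Atf6 are the genes that lost their calls in these fits, while Dnajb9 and Manf kept theirs. Where the calls were lost, the log2 fold changes were 0.29 to 0.33 for Hspa5, 0.27 to 0.29 for Canx and 0.36 to 0.52 for Atf6, near those with all libraries. Leaving out 1 library leaves 2 in its group.

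Between the KO-labelled libraries and WT Cold no gene of the 34 passed by limma, and none by DESeq2 or edgeR. Over all genes 0.178% were higher and 0.227% lower by limma, and 0.257% passed the stricter rule in either direction. DESeq2 called 3.22% of all genes in this comparison and edgeR 0.27%. At an unadjusted p under 0.05 there were 5 of the 34, where 15.3% of all genes were. The median log2 fold change of the 34 was 0.0071. In 6 genes each KO-labelled library lay above each WT Cold library (11.4% of all genes) and in 3 below (10.6%).

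Xbp1 and Ern1 were 2 of the 3 lower without overlap. Xbp1 was at 1988, 2245 and 1832 in the KO-labelled libraries and at 2356 to 3041 in WT Cold. The log2 fold change was -0.38 ± 0.12 (95% interval -0.66 to -0.10, adjusted p = 0.2, limma). With all 3 groups in a single limma fit on log2 CPM the adjusted p of Xbp1 was 0.039, the single call for the 34 genes in any setting of this comparison. Ern1 was at 371.5, 357.1 and 404.1 against 443.6 to 599.6, with a log2 fold change of -0.40 ± 0.14 (interval -0.73 to -0.07, adjusted p = 0.25, limma). Atf6 was at 1573, 1806 and 1873, within the range of WT Cold or below it (-0.19, interval -0.49 to 0.12). Hspa5 was at 12641, 13288 and 13400.3, overlapping WT Cold, with a log2 fold change of 0.06 (interval -0.10 to 0.21). Manf was at 3629, 3367 and 4942 against 2870 to 3227 (0.35 ± 0.15, interval 0.0097 to 0.69, adjusted p = 0.31, limma). Ssr2 (0.26 ± 0.08, adjusted p = 0.2, limma) and Sec61b (0.31 ± 0.11, adjusted p = 0.24, limma) also lay above WT Cold in each library. For 32 of the 34 genes the 95% interval lay within 1 log2 unit of 0 and for 23 within 0.5. Herpud1 and Derl3 were the 2 whose interval reached beyond 1, from -1.004 to 0.48 in Herpud1 and from -1.11 to 3.03 in Derl3.

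Against WT RT the KO-labelled libraries had 5 genes higher and 8 lower by limma, where 16.4% of all genes were higher and 17.8% lower. This comparison shares its WT RT libraries with that of WT Cold and differs in genotype and temperature at once. One gene, Manf, passed the stricter rule, which 10.6% of all genes passed. In 7 genes each library lay above WT RT (24% of all genes) and in 12 below (25.5%). The median log2 fold change was -0.11 against 0.0091 over all genes tested.

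Manf was at 3629, 3367 and 4942 in the KO-labelled libraries, all above WT RT at 1752 to 2037, with a log2 fold change of 1.05 ± 0.14 (adjusted p = 0.0012, limma). Dnajb9 was at 2979, 2913 and 3268, also without overlap (0.68 ± 0.08, adjusted p = 0.00061, limma). Ssr2, a subunit of the translocon-associated complex, was at 2715, 2676 and 2825 against 2127, 1983 and 1831 in WT RT, and rose (0.48 ± 0.08, adjusted p = 0.0029, limma). Hspa5 (0.38 ± 0.08) and Canx (0.39 ± 0.08) rose, with adjusted p values of 0.0065 and 0.0076 by limma. Both calls were lost with CPM scaling, at 0.13 and 0.064. Atf6 was at 1573 to 1873, above each WT RT library, and did not pass (0.28 ± 0.10, adjusted p = 0.055, limma). It passed with the filter at a mean of 50 (adjusted p = 0.049, limma) and without GCN2 KO Cold A (0.35, adjusted p = 0.029, limma). Xbp1 lay below WT RT in each library (-0.28 ± 0.10, adjusted p = 0.056, limma), and Ern1 overlapped it (-0.10). Xbp1 passed as lower by edgeR (-0.30, adjusted p = 0.041), with CPM scaling (-0.48, adjusted p = 0.0046, limma) and without GCN2 KO Cold B (-0.36, adjusted p = 0.031, limma).

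Among the genes that fell, Pdia4 was at 832.3, 1052 and 983.6 against 1719.7 to 1839.8 in WT RT, without overlap (-0.90 ± 0.10, adjusted p = 0.00057, limma). Pdia6 was at 2808, 3829 and 3184, all below WT RT (-0.70 ± 0.11, adjusted p = 0.0024, limma). Sel1l was at 1345, 1568 and 1418 (-0.57 ± 0.09, adjusted p = 0.0019, limma), and Edem1 at 1332, 1414 and 1201 (-0.53 ± 0.09, adjusted p = 0.0027, limma). The other 4 were Txndc5 (-0.39), P4hb (-0.33), Derl1 (-0.31) and Dnajc10 (-0.30). Of all 13 calls, those of Dnajb9, Manf, Ssr2, Pdia4, Pdia6, Txndc5, Edem1 and Sel1l held in each alternative fit, and the count of lower genes was 5 without WT RT B. Scaling by library total shifted the median of all genes by -0.12 against WT Cold and by -0.20 against WT RT on the log2 scale. It gave 3 higher and 14 lower in this comparison, with Hsp90b1, Hyou1, Sdf2l1, Creld2, Xbp1 and Crebrf added to the 8. Over all genes it called 6306 of 16560, 23.6% of them higher.

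**Figure D4:**
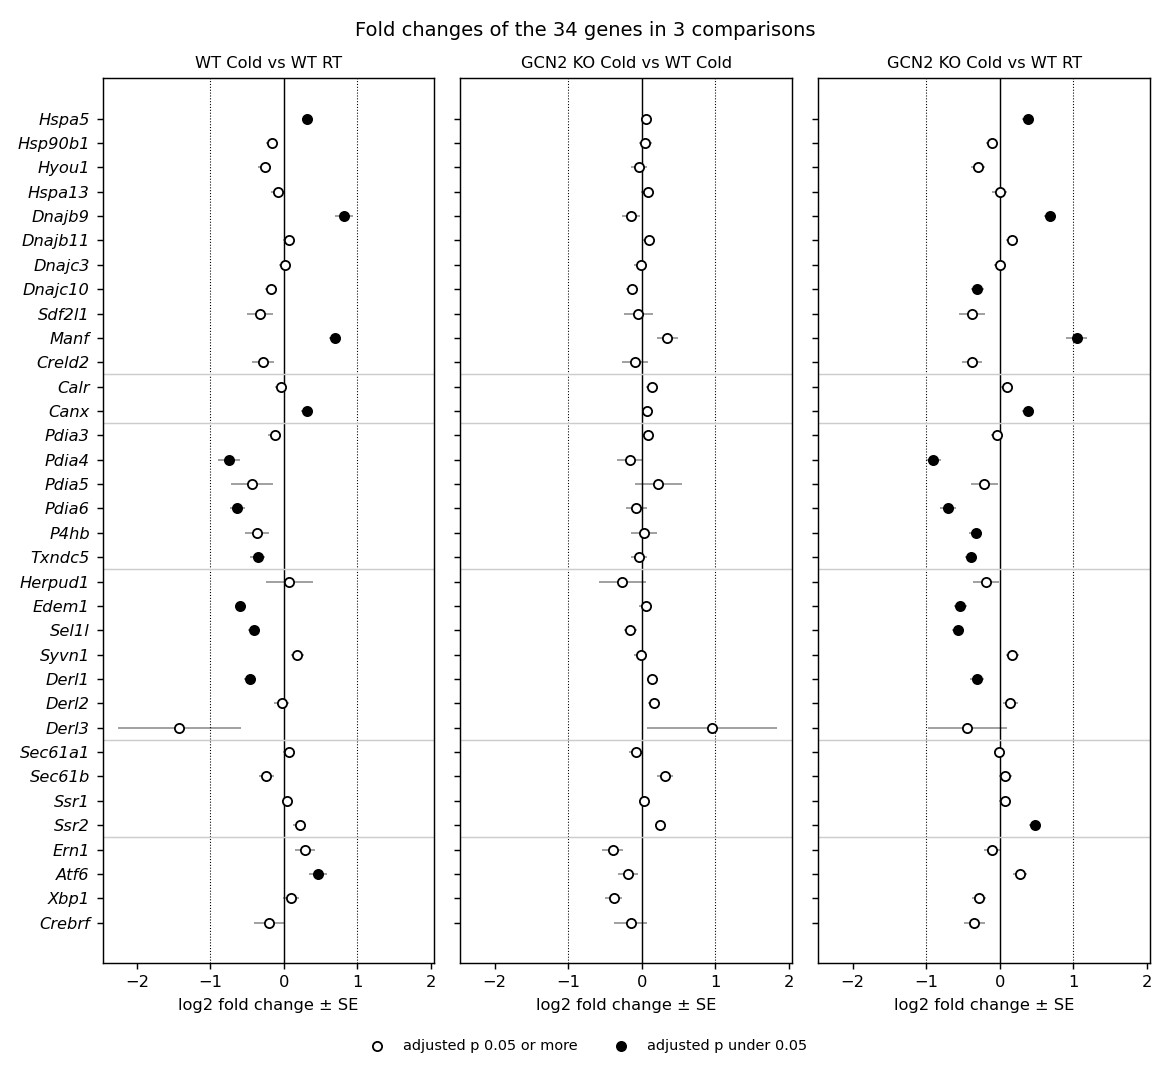
Log2 fold change with its SE for the 34 genes in WT Cold against WT RT (left), GCN2 KO Cold against WT Cold (middle) and GCN2 KO Cold against WT RT (right). Filled points passed an adjusted p under 0.05 (11, 0 and 13 genes), open points did not, and dotted lines mark a log2 fold change of 1 in either direction.

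Among the 27 genes with a promoter sequence, calls of ERSE carriers varied with the fit and the scaling. Of the 9 genes that carry it, Hspa5 and Canx rose, Pdia6 fell and 6 did not pass in WT Cold against WT RT, with log2 fold changes from -1.42 for Derl3 to 0.19 for Syvn1. The counts were the same 2, 1 and 6 in the KO-labelled libraries against WT RT. Over all genes 13.6% were higher and 14.1% lower in the first comparison and 16.4% and 17.8% in the second. With CPM scaling of 2 groups at a time no carrier was higher in either, while Pdia6 was lower in the first and Pdia6, Hsp90b1 and Creld2 in the second. In the first, the fit of all 3 groups on CPM kept Hspa5 and Canx as higher (adjusted p = 0.042 and 0.038, limma). It also called Hsp90b1 lower there (adjusted p = 0.041, limma). In the second it lost Hspa5 and Canx (adjusted p = 0.094 and 0.062, limma). Pdia4, Edem1, Sel1l and Dnajb9, which moved more than Hspa5, had no full ERSE in the window read. The carrier Pdia6 (log2 fold change -0.63 in WT Cold) also moved more than Hspa5 (0.32). A match describes letters in a window and not a site in use.

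A list of 80 other genes of these pathways, of which 77 were tested, gave 17 higher and 6 lower in WT Cold against WT RT, where 13.6% and 14.1% of all genes were. With CPM scaling these were 13 and 10, where 4475 of 16679 genes were called and 35.1% of those were higher. Of the 12 genes of the PERK arm and ATF4 targets 6 were higher and 0 lower. By immunoblot the study found PERK phosphorylation in brown fat unchanged by cold or genotype. Atf4, the transcription factor of the integrated stress response, was at 2700.5, 4214 and 3121 normalized counts in WT RT and at 7423, 6953 and 8320.0 in WT Cold (log2 fold change 1.20 ± 0.16, adjusted p = 0.0018, limma). The groups were far apart. Sesn2, a stress-induced inhibitor of mTORC1, rose by 1.26 ± 0.21 (adjusted p = 0.0048, limma) and Ppp1r15a (GADD34), which reverses eIF2 phosphorylation, by 0.95 ± 0.19 (adjusted p = 0.009, limma). Ddit3 (CHOP), a later transcription factor of this arm, was at 501.3 to 602.8 in WT RT and 564.6 to 632.6 in WT Cold (0.15 ± 0.11, adjusted p = 0.32, limma). Eif2ak3 (PERK) lay above WT RT in each library without passing (0.32 ± 0.12, adjusted p = 0.089, limma). Among the 15 further ERAD genes 6 rose and 2 fell, and the 3 largest falls that passed in the whole list were in Edem2 (-0.74), Sil1, a nucleotide exchange factor for BiP (-0.45), and the mannosidase Man1b1 (-0.39).

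None of the 77 passed between the KO-labelled libraries and WT Cold by limma, with 12 at an unadjusted p under 0.05, which 15.3% of all genes had. There Atf4 was at 5926, 5431 and 8513, overlapping WT Cold (-0.22, interval -0.61 to 0.18), Ddit3 had a log2 fold change of 0.20 and Eif2ak3 of -0.03. Against WT RT 28 were higher and 11 lower, beside 16.4% and 17.8% of all genes. With CPM scaling the balance turned, to 16 higher and 19 lower, where 6306 of 16560 genes were called and 23.6% of those were higher. Atf4 rose (0.99 ± 0.20), as did Atf5 (0.68 ± 0.22), a related factor, and the ERAD protein gene Selenos (0.68 ± 0.09). In CPM Atf5 overlapped WT RT, at 367, 334 and 550 in the KO-labelled libraries against 239, 293 and 359. Chac1, which breaks down glutathione, fell (-1.17 ± 0.33), as did Kdelr3, a receptor that returns ER proteins from the Golgi (-1.03 ± 0.21), and Uggt2, a folding sensor of glycoproteins (-0.75 ± 0.24).

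Markers of other cell types moved with the groups. The summed level of 6 fibroblast markers, cells that secrete collagen, was 1066 to 1238 CPM in WT RT, 799 to 907 in WT Cold and 527 to 688 in the KO-labelled libraries. In WT Cold 4 of the 6 (Col1a1, Col1a2, Col3a1 and Lum) lay below WT RT in each library, while Dcn, at 207 to 247 CPM against 175 to 258, and Pdgfra overlapped it. That of 7 macrophage markers was 380 to 575, 199 to 296 and 149 to 223. Plasma cells are rich in ER. The 7 listed B and plasma cell markers summed to 36.8 to 59.4, 35.3 to 40.8 and 34.8 to 40.9 CPM, and Mzb1 was not listed. What share of the tissue these cells made up was not tested. Markers of skeletal muscle (10 genes) summed to 2093 to 2533 and 1974 to 3291 in WT and to 279 to 1075 in the KO-labelled libraries, and those of brown adipocytes (8 genes) to 7922 to 9390, 12648 to 14042 and 14725 to 14912. Of these 8, Ucp1, Dio2 and Ppargc1a lay above WT RT in each WT Cold library, Plin1 lay below it, at 898 to 959 CPM against 1188 to 1338, and 4 overlapped it. The 5 endothelial markers summed to 496 to 548, 582 to 708 and 461 to 563, and the 5 red blood cell markers to 260.4 to 345, 572 to 2279 and 1085 to 2082. Of the endothelial markers, Pecam1, Kdr and Vwf lay above WT RT in each WT Cold library, Tie1 lay below it and Cdh5 overlapped it. No marker listed was at 0 in any library. Mitochondrially encoded transcripts took 17.9% to 18.5%, 19.9% to 21.9% and 22.7% to 24.4% of the reads. The part of these shifts in the values of Pdia4, Pdia6, Txndc5 and the other ER genes was not tested.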

How the data were processed

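The members and all gene lists were chosen with earlier results of these data known. Total RNA was enriched with oligo(dT) and sequenced. Per the submitters' processing notes, reads were trimmed with Trimmomatic 0.36, aligned with STAR 2.5.2b to GRCm39 and counted over exons with featureCounts (Subread 1.5.2). Strand-specific counting is not stated, so overlapping and antisense genes cannot be separated. The authors deposited 3 tables, 1 per comparison, whose signal values are read counts divided by the DESeq2 size factors of that table. Each table also holds the authors' fold changes and p-values, which were not used. Columns were mapped to groups by their codes, and no column belonged to other samples. Littermates were caged together before grouping, per the methods of the study, but which libraries share a litter is not given in the sources used here, so p-values measure the spread between these samples.

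Whole reads were recovered for 100% of values (tolerance 0.01). Log2(normalized count + 1) was tested with limma 3.58.1 (trend, R 4.3.3), separately per table, with Benjamini-Hochberg adjustment over the 16679 genes of the table of WT Cold with WT RT, 16312 of that of both cold groups and 16560 of that of GCN2 KO Cold with WT RT. A gene passed at an adjusted p under 0.05. Fold changes are on the log2(normalized count + 1) scale, which understates low genes, and intervals are 95%. Values per library use median-of-ratios factors over the 16006 genes listed in all tables, computed here, and may differ in scale from a single table. The deposited values were counts scaled by the authors, which is why limma and not a count model gave the main result. Lengths are exon unions of GENCODE M21. DESeq2 1.42.0 and edgeR 4.0.16 on recovered reads, another pseudocount, a filter, CPM scaling, a fit of all groups on CPM, no trend, other thresholds and leaving out each library were the alternatives. The scripts were tested on simulated data. Named with every library are the 3 largest rises and falls past the threshold in each comparison, Hspa5, Xbp1, Ern1 and Atf6. Of the other pathway genes, the text names at most 3 in each direction plus Atf4, Ddit3 and Eif2ak3. Further members were shown after their values were seen. One sample titled both GCN2 KO and WT was grouped by its genotype field.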

Additional observations from a re-analysis of the deposited data

How the results depend on the processing

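With 3 libraries in a group, the 95% interval of Derl3, at 2 to 33 reads in a library, reached beyond 1 log2 unit in all 3 comparisons. Of the members, 2 of 5 higher and 5 of 6 lower in WT Cold against WT RT, and 3 of 5 and 5 of 8 in GCN2 KO Cold against WT RT, held in each alternative fit. Other pseudocounts, DESeq2 and the filter at a mean of 50 moved no count of members by over 1.5 times, nor did edgeR. No called member changed sign in any alternative. With CPM scaling 5, 9 and 7 uncalled members changed sign in the 3 comparisons, and the share of calls over all genes that were higher went from 49% to 35.1% (WT Cold against WT RT), from 43.9% to 17.5% (against WT Cold) and from 48% to 23.6% (GCN2 KO Cold against WT RT). No paired analysis was possible because the columns carry no replicate numbers.

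The fit of all 3 groups also scaled by CPM, so it changed both choices at once. For members higher in WT Cold against WT RT (5), CPM scaling, no trend and an adjusted p under 0.01 each gave 2. The fit of all 3 groups gave 5, the fold threshold 0 and leave-one-out 2 to 5. For members lower (6), the fit of all 3 groups gave 10, the fold threshold 0 and leave-one-out 5 to 13. In GCN2 KO Cold against WT Cold the fit of all 3 groups gave 1 lower, in place of 0, and no other alternative gave any call, the C libraries of both cold groups left out (chosen after seeing the data) included. Against WT RT, members higher (5) numbered 3 with CPM scaling and with the fit of all 3 groups and 1 with the fold threshold. Members lower (8) numbered 14 with CPM scaling and with all 3 groups, 5 with no trend and at 0.01, 0 with the fold threshold, and 5 to 9 with leave-one-out.

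The alternatives for the other pathway genes and for Eif2ak4 were chosen after seeing the data. Other pathway genes higher in WT Cold against WT RT (17) numbered 10 with no trend, 8 at 0.01, 2 with the fold threshold and 11 to 19 with leave-one-out. Those lower (6) numbered 10 with CPM scaling, 11 with all 3 groups, 3 with no trend, 2 at 0.01, 12 at 0.1, 0 with the fold threshold and 2 to 10 with leave-one-out. In GCN2 KO Cold against WT RT those higher (28) numbered 16 with CPM scaling, 15 with all 3 groups, 17 at 0.01 and 0 with the fold threshold. Those lower (11) numbered 19 with CPM scaling and with all 3 groups, 5 with no trend, 3 at 0.01, 2 with the fold threshold and 4 to 9 with leave-one-out. Eif2ak4 was lower in WT Cold than in WT RT (log2 fold change -0.59), no longer past the threshold with no trend (-0.59) nor in 4 of the 6 fits that left out a library, in which it ran from -0.65 to -0.45 (-0.67 to -0.45 over all 6). In GCN2 KO Cold against WT Cold it was 0.78 without a call, and passed with DESeq2 (0.77) and with all 3 groups (0.66). Why these values moved was not tested.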
